A study of Oryza sativa with 6 samples.

Results

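OsCIN2 is a rice gene for a cell wall invertase, also known as GIF1. It is 1 of 17905 genes that the array's annotation names, and its locus, LOC4335790, has 1 probe set of the 57258 tested, which was followed on all 6 arrays. The gene was chosen by its difference in signal between these same groups of arrays, so that difference is a description and carries no test. RNA came from seedlings 11 days old, grown on agar with sucrose. 3 samples were CHR729 T-DNA mutants and 3 were wild type of the cultivar Hwayoung, with 1 Affymetrix rice array per sample. CHR729 encodes a CHD-type chromatin remodelling protein. The labels give the cultivar for the wild type only, and they do not say whether the mutants came from 1 insertion line. No probe set could be paired with CHR729 by name, so its own transcript was not analysed here.

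Invertases split sucrose into glucose and fructose. Cell wall invertases (CIN) do so outside the cell, where sucrose arrives from the phloem, and the hexoses are then taken up by the receiving cells. Neutral invertases (NIN, CINV) act inside the cell. In rice, OsCIN2 is best known from the developing grain, where loss of its function leaves grains poorly filled.

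OsCIN2 had MAS5 signals of 551.9, 646.9 and 660.7 in the CHR729 mutant arrays, against 230.2, 207.1 and 277.6 in the wild-type arrays. All 3 mutant signals lay above all 3 wild-type signals, and the lowest mutant array was 1.99 times the highest wild-type array. Within a genotype the arrays lay closer together: the highest signal was 1.20 times the lowest in the mutant and 1.34 times in wild type. The mean was 619.8 ± 59.2 in the mutant and 238.3 ± 35.9 in wild type (SD, n = 3 each), a ratio of 2.60. On the log2 scale with an offset of 32 added to each signal, which shrinks the differences of dim genes, the difference was 1.27 (SE 0.12, 95% interval 1.01 to 1.53). The interval makes no allowance for the choice of the gene by this difference, so it is no test of the rise. With the brightest probe set taken for each of 17905 genes, OsCIN2 stood at rank 60 by this difference, counted from the largest rise. Every array read OsCIN2 above that array's median signal, which lay between 67.6 and 71.1. In RNA of bulk seedling tissue, more cells that make the transcript and more transcript per cell cannot be told apart.

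**Figure D1:**
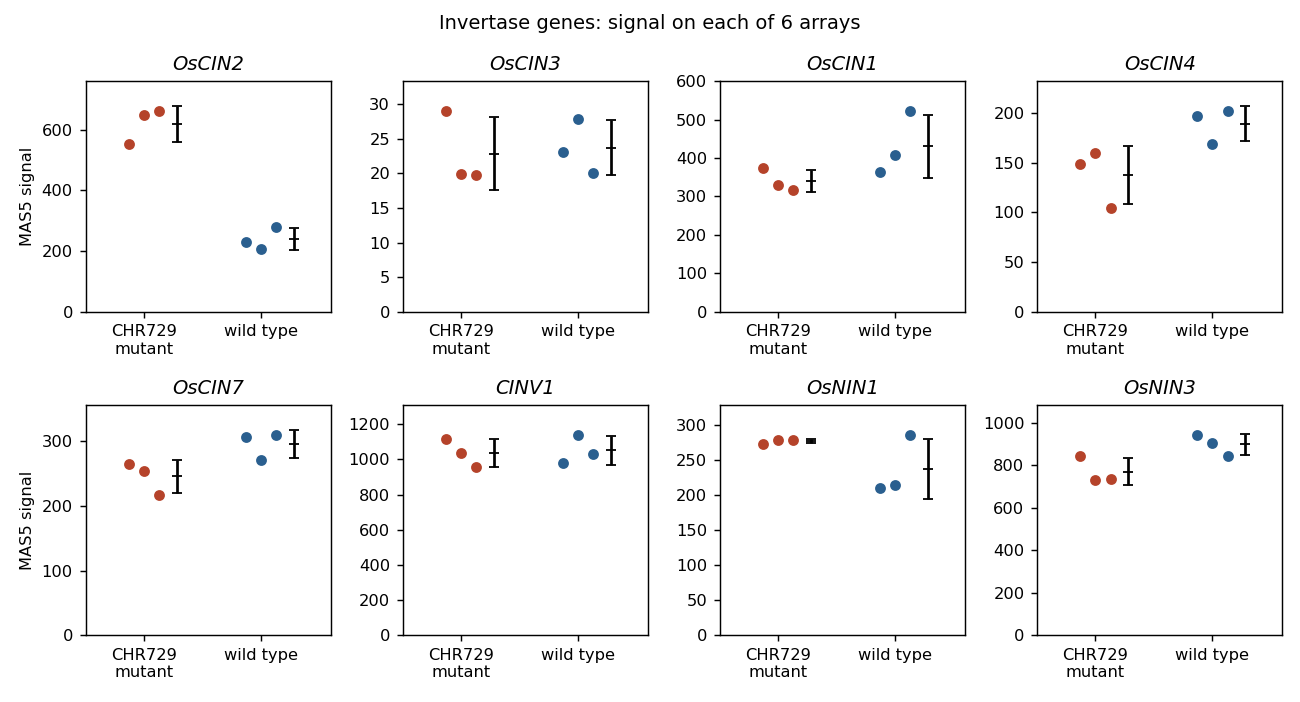
MAS5 signal (vertical axes, linear, from 0, a scale of its own for each gene) of 8 invertase genes on each array, CHR729 mutant left and wild type right. Points are arrays and the bars beside them are the mean ± SD of 3. For OsCIN2 the mutant points sit between 551.9 and 660.7, all above the wild-type points.

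The question set beside OsCIN2 was whether the other invertase genes moved with it. The gene table names 10 genes in the family by a CIN, CINV, NIN or INV symbol, and 8 of them have a probe set here, OsCIN2 included. All 8 go here by CIN, CINV or NIN names, those of cell wall and neutral invertases. None is named here for an invertase of the vacuole. Of the other 7, none rose or fell by limma at an adjusted p of 0.05, where 19.6% of all genes passed in either direction. At an unadjusted p under 0.05 there were 4, namely OsCIN1, OsCIN4, OsCIN7 and OsNIN3, each with a lower mean in the mutant, where 38.2% of all genes were under it in either direction. Their groups did not overlap in 3 of the 7, against 42.9% of all genes. The median log2 difference of the 7 was -0.22, beside 0.01 over all genes.

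OsCIN3 is the cell wall invertase gene next to OsCIN2 on the chromosome. Its signals were 29.0, 19.8 and 19.7 in the mutant, against 23.1, 27.9 and 20.0 in wild type. These are dim against the array medians, and the groups overlap, with a log2 difference of -0.02 (SE 0.08, 95% interval -0.21 to 0.16, adjusted p = 0.917). For so dim a probe set a change in the transcript may go unseen.

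OsCIN1, another cell wall invertase gene, had signals of 373.0, 328.9 and 317.1 in the mutant, against 362.5, 407.5 and 522.0 in wild type. The groups overlap through mutant replicate 1 and wild-type replicate 1. The log2 difference was -0.30 (SE 0.13, 95% interval -0.59 to -0.02, adjusted p = 0.193).

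OsCIN4 had signals of 148.6, 160.0 and 104.1 in the mutant, against 197.0, 168.8 and 201.7 in wild type. The mutant arrays were all lower, yet the lowest of them stood well apart from the other mutant arrays. The log2 difference was -0.40 (SE 0.13, 95% interval -0.68 to -0.11, adjusted p = 0.0885). OsCIN7 had signals of 265.7, 254.5 and 217.7 in the mutant, against 306.3, 270.6 and 310.3 in wild type. Here too the groups did not overlap, with a log2 difference of -0.24 (SE 0.10, adjusted p = 0.191).

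None of the 3 neutral invertase genes passed. CINV1, for a cytosolic invertase, had signals of 1116, 1035 and 956.8 in the mutant, against 979.9, 1140 and 1033 in wild type, and its log2 difference was -0.02 (95% interval -0.24 to 0.20, adjusted p = 0.940). OsNIN3 averaged 770.2 ± 63.2 in the mutant and 898.4 ± 49.97 in wild type (SD, n = 3 each), with no overlap and a log2 difference of -0.22 (SE 0.10, adjusted p = 0.219). OsNIN1 had signals of 273.1, 278.4 and 278.3 in the mutant, against 210.7, 214.5 and 285.9 in wild type. Wild-type replicate 3 alone overlaps the mutant. The log2 difference was 0.21 (SE 0.11, adjusted p = 0.327), and without that array it was 0.34 and passed at an adjusted p of 0.0367. In the other fits that left out 1 array OsNIN1 did not pass (adjusted p from 0.453 to 0.599).

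**Figure D2:**
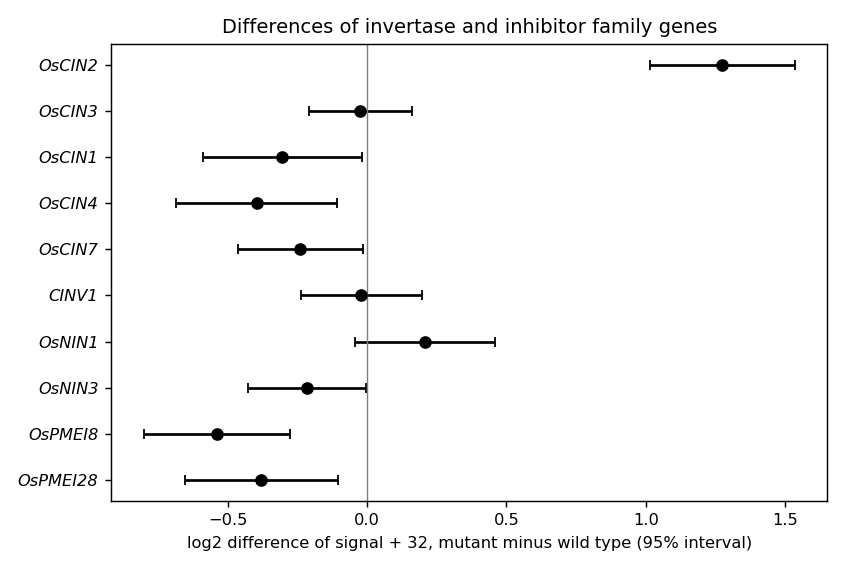
Log2 difference of signal + 32, mutant minus wild type (horizontal axis), for the 8 invertase genes and 2 inhibitor family genes. Points are the fitted differences and bars their 95% intervals, unadjusted. The interval of OsCIN2 makes no allowance for its choice by this difference. OsCIN2 lies at 1.27, and the other 7 invertase genes lie between -0.40 and 0.21.

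Invertases can be held inactive by small inhibitor proteins, which belong to the same protein family as the inhibitors of pectin methylesterase. Of 2 measured genes named in that family 1 fell, where 8.71% of all genes fell, and the names do not say which enzyme they act on. OsPMEI8 had signals of 184.9, 143.9 and 168.5 in the mutant, against 296.6, 220.6 and 250.3 in wild type. Every mutant array was lower than every wild-type array, and the log2 difference was -0.54 (SE 0.12, adjusted p = 0.0174). The call was lost without mutant replicate 2 (adjusted p = 0.0987) and without mutant replicate 3 (adjusted p = 0.0576). OsPMEI28 averaged 695.0 ± 122 in the mutant and 904.1 ± 28.5 in wild type (SD, n = 3 each), with a log2 difference of -0.38 (SE 0.12, adjusted p = 0.0882).

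Sucrose synthase is the other enzyme that cleaves sucrose in plant cells, giving UDP-glucose and fructose, while sucrose phosphate synthase and sucrose phosphatase make sucrose. Of 12 measured genes of these kinds 2 rose and none fell, against 10.9% rising among all genes, with a list median of -0.01. Both were sucrose synthase genes. OsSUS1 had signals of 5813, 5934 and 5707 in the mutant, against 4526, 4610 and 4612 in wild type. The arrays of each genotype lay close together and the groups did not overlap, with a log2 difference of 0.34 (SE 0.07, adjusted p = 0.0115). Without mutant replicate 2 the adjusted p was 0.08. A further OsSUS1 probe set, which the array's naming marks as able to bind related transcripts, rose by 0.42 (SE 0.08, adjusted p = 0.0112). OsSUS5 had signals of 240.0, 233.3 and 232.2 in the mutant, against 158.4, 135.5 and 165.2 in wild type. It rose by 0.53 on the log2 scale (SE 0.09, adjusted p = 0.00553).

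Among 18 measured genes for sucrose and hexose transporters, 1 rose and 1 fell, against 10.9% rising and 8.71% falling among all genes, with a list median of 0.05. OsSWEET11, which lets sucrose leave cells and is known from grain filling and from bacterial blight, had signals of 853.6, 901.7 and 930.3 in the mutant, against 560.7, 452.2 and 548.0 in wild type. All mutant arrays were higher, and the log2 difference of 0.75 (SE 0.10, adjusted p = 0.00189) was the largest rise among the 69 sugar pathway genes counted here beside the invertases. Its probe set is of a kind that can bind more than 1 transcript. OsSUT4, a sucrose transporter gene, had signals of 507.3, 426.5 and 421.0 in the mutant, against 611.4, 671.1 and 630.0 in wild type. The groups did not overlap, and it fell by 0.47 on the log2 scale (SE 0.10, adjusted p = 0.0147). That call was lost without mutant replicate 2 (adjusted p = 0.0918), without mutant replicate 3 (adjusted p = 0.0696) and without wild-type replicate 2 (adjusted p = 0.0663).

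Hexokinases and fructokinases phosphorylate the hexoses that invertases release. Of 8 measured genes 1 rose and none fell, where 10.9% of all genes rose. It was LOC4339420, named HXK2 and HXK3 in the gene table, with signals of 131.9, 132.4 and 145.7 in the mutant, against 83.8, 102.3 and 92.4 in wild type. The groups did not overlap, and the log2 difference was 0.44 (SE 0.09, adjusted p = 0.0113). The call was lost without mutant replicate 2 (adjusted p = 0.05005) and without mutant replicate 3 (adjusted p = 0.0527), and a dimmer probe set of the same gene had 0.25 (adjusted p = 0.086).

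Trehalose phosphate is a sugar phosphate by which plants register their sucrose supply, and trehalose phosphate phosphatases (TPP) remove it. Of 8 measured TPP genes 2 fell and none rose, beside 8.71% falling among all genes. OsTPP7, known for growth of germinating rice under water, had signals of 3174, 2465 and 1818 in the mutant, against 4425, 4334 and 4703 in wild type. The mutant arrays were spread widely but all lay below wild type, with a log2 difference of -0.88 (SE 0.16, adjusted p = 0.0076). This probe set is of a kind that can bind several transcripts. A dimmer OsTPP7 probe set, not of that kind, fell by 0.55 (SE 0.11, adjusted p = 0.012). OsTPP1 had signals of 3248, 2219 and 1756 in the mutant, against 3909, 4586 and 3907 in wild type, the mutant arrays in the same order as for OsTPP7. It fell by 0.81 on the log2 scale (SE 0.18, adjusted p = 0.0181), and the call was lost without mutant replicate 2 (adjusted p = 0.0808), without mutant replicate 3 (adjusted p = 0.0549) and without wild-type replicate 2 (adjusted p = 0.0824).

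Of 6 measured sugar signalling genes, for SnRK1 kinases and the MYBS factors that bind alpha-amylase promoters, 2 fell and none rose, where 8.71% of all genes fell. OsMYBS3, for a factor that represses alpha-amylase genes, had signals of 1485, 1492 and 1331 in the mutant, against 2795, 2458 and 2088 in wild type. The groups were well apart, and it fell by 0.75 (SE 0.11, adjusted p = 0.00293), while a dimmer OsMYBS3 probe set had 0.06 (adjusted p = 0.859). OSK3, for a SnRK1-type kinase, had signals of 415.6, 413.4 and 393.6 in the mutant, against 620.1, 541.3 and 604.2 in wild type. It fell by 0.50 (SE 0.09, adjusted p = 0.00798). The brightest OSK3 probe set and those of OSK24 are marked as able to bind related transcripts, so the pair cannot be separated with certainty. 2 dimmer OSK24 probe sets fell by 0.49 and 0.38, and the brightest OSK24 one had -0.20 (adjusted p = 0.272). A dimmer OSK3 probe set without that mark fell by 0.37 (SE 0.09, adjusted p = 0.0239).

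None of 9 starch synthesis genes and none of 6 starch breakdown genes passed by limma when the brightest probe set was read. At an unadjusted p under 0.05 there were 4 for synthesis and 0 for breakdown, beside 38.2% of all genes. The synthesis list also holds OsDPE1 and DPE2, for disproportionating enzymes. OsDPE1 was among the 4, with a log2 difference of 0.24 (adjusted p = 0.149). A dimmer probe set of SBE, for a starch branching enzyme, fell by 0.38 (adjusted p = 0.0347). No other SBE probe set passed: the brightest had -0.34 (adjusted p = 0.102) and a dim one had 0.17 (adjusted p = 0.138). The passing and the brightest SBE probe sets are both marked as able to bind related transcripts. A dim probe set of the signalling gene OsMYBS2 rose by 0.33 (adjusted p = 0.0375), where the brightest of OsMYBS2 had -0.32 (adjusted p = 0.162). The member with the lowest p for starch synthesis was OsGBSS1, for the granule-bound starch synthase, with signals of 72.1, 74.4 and 68.2 in the mutant, against 104.3, 98.0 and 78.5 in wild type (log2 difference -0.27, SE 0.09, adjusted p = 0.0975). This OsGBSS1 probe set is marked as able to bind related transcripts. The gene's dimmer probe sets had differences from -0.15 to 0.03 and did not pass. For starch breakdown the member with the lowest p was AMY1A, an alpha-amylase gene at the dim end in both groups. It had 9.53 ± 0.93 in the mutant and 7.51 ± 2.50 in wild type (SD, n = 3 each, adjusted p = 0.552). Over all 8 lists beside the invertases, 4 of 69 genes rose and 6 fell. Among all genes 10.9% rose and 8.71% fell. Leaving out mutant replicate 2 gave 5 calls in place of 10, leaving out mutant replicate 3 gave 6, and leaving out wild-type replicate 3 gave 16. The median log2 difference of the 69 was -0.03, beside 0.01 over all genes.

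**Figure D3:**
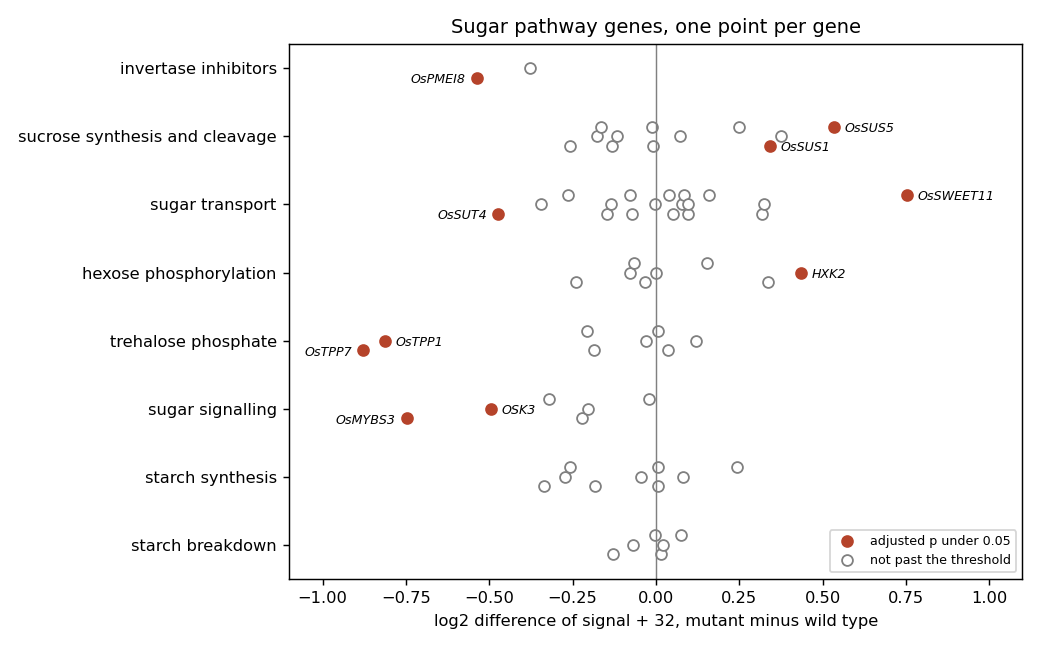
Log2 difference of signal + 32, mutant minus wild type (horizontal axis), for 69 genes in 8 sugar pathway lists, 1 point per gene by its brightest probe set. Filled, named points passed an adjusted p of 0.05 over all probe sets: 4 lie right of 0 and 6 left of it, between -0.88 and 0.75.

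OsCIN2 was also set beside its nearest measured neighbours, 3 on each side in the order of the gene table. Of these 6 genes 2 rose and none fell, while 10.9% of all genes rose. OsCIN3 lies directly on the lower side, with no other gene of the table between, and its dim, overlapping signals are given above. LOC4335791 lies directly on the other side, also with no gene between. It had signals of 2544, 2634 and 2970 in the mutant, against 1856, 1650 and 1909 in wild type, without overlap, and rose by 0.58 (SE 0.10, adjusted p = 0.00451). LOC4335786, on the side of OsCIN3 with 3 genes between, had 199.2 ± 12.6 in the mutant and 150.7 ± 1.39 in wild type (SD, n = 3 each). It rose by 0.34 (SE 0.08, adjusted p = 0.0289), but missed the threshold in 5 of the 6 fits that left out 1 array, namely all but the fit without wild-type replicate 3, with an adjusted p between 0.0569 and 0.118. LOC4335788, LOC4335793 and LOC4335795 had log2 differences of -0.17, -0.43 and 0.02 and did not pass. LOC4335793 passed as lower in the mutant after quantile normalization (adjusted p = 0.0481), after subtraction of the array medians (adjusted p = 0.0486) and in the fit without wild-type replicate 3 (adjusted p = 0.0204).

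**Figure D4:**
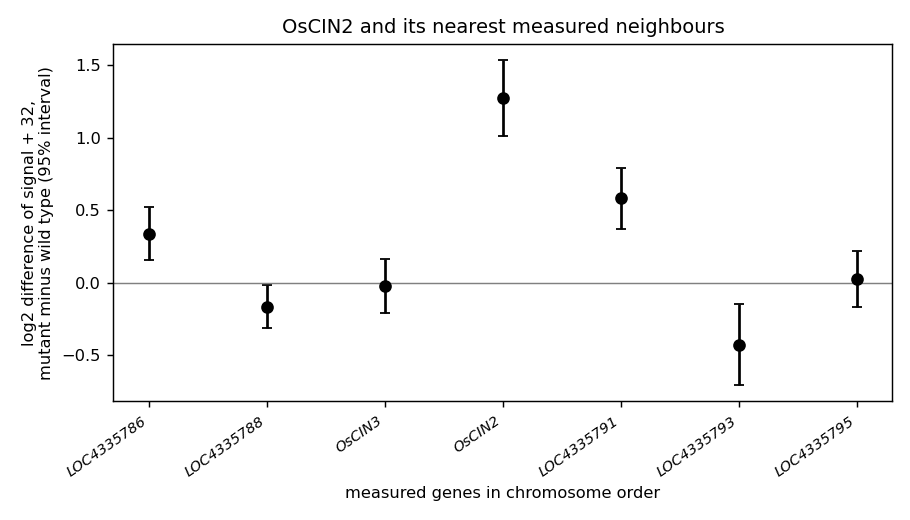
Log2 difference of signal + 32, mutant minus wild type (vertical axis), for OsCIN2 and the 3 nearest measured genes on each side, in chromosome order and not to scale in distance. Points are fitted differences and bars unadjusted 95% intervals. The interval of OsCIN2 makes no allowance for its choice by this difference. OsCIN2 lies at 1.27, LOC4335791 at 0.58 and OsCIN3 at -0.02.

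The genes whose profile lay nearest to that of OsCIN2 were found by the Euclidean distance between log2 profiles over the 6 arrays, each centred on its own mean. The nearest 5 were LOC4342941, LOC4339057, LOC4329540, LOC4344263 and LOC4347641, none of which carries a gene name in the table. Their distances were 0.18, 0.22, 0.24, 0.25 and 0.26, in units of log2 signal. LOC4342941, the nearest, had signals of 456.2, 461.2 and 468.2 in the mutant, against 175.3, 147.8 and 208.8 in wild type. Like OsCIN2 it was lowest in wild-type replicate 2 and highest, among wild type, in replicate 3, an order that the choice by distance favours. The likeness describes these 6 arrays and follows mainly from the step between the genotypes: 1395 of 22436 probe sets that name 1 gene had a correlation of at least 0.95 with OsCIN2.

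**Figure D5:**
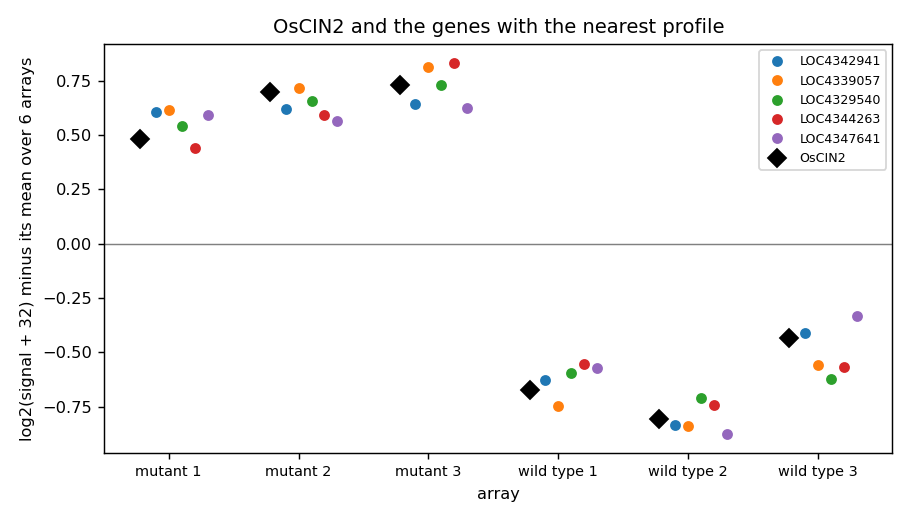
Log2(signal + 32) minus its mean over the 6 arrays (vertical axis) on each array (horizontal axis), for OsCIN2 (black diamonds) and the 5 genes with the nearest profiles (circles). All 6 genes lie above 0 on the mutant arrays and below 0 on the wild-type arrays.

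The tissue label was checked against lists of leaf, root and seed genes. OsrbcS, for the small subunit of Rubisco, had signals from 15800 to 16602 in the mutant and from 15867 to 16088 in wild type, and none of 4 leaf genes passed by its brightest probe set. For rca, the Rubisco activase gene, that probe set had a log2 difference of -0.29 (adjusted p = 0.0707) without overlap, and a further one of similar signal fell by 0.45 (adjusted p = 0.0208). The remaining rca probe sets had -0.29 (adjusted p = 0.0502) and -0.21 (adjusted p = 0.159), also lower in the mutant without overlap. RBCS1, another of the 4 leaf genes, was far dimmer than the array medians, with means of 14.9 in the mutant and 14.5 in wild type. For so dim a probe set a change may go unseen. The summed leaf signals ran from 33112 to 36212 in the mutant and from 35159 to 36275 in wild type. Of 8 genes for root uptake of nutrients, 6 were dimmer than the array medians on every array. The silicon channel gene Lsi1 averaged 306.5 ± 23.7 in the mutant and 341.9 ± 19.5 in wild type, and OsNAAT1, of iron uptake, fell by 1.24 (adjusted p = 0.00065). It was the 1 gene of the 8 that passed, beside 8.71% falling among all genes, and the list median was -0.09. The summed root signals were 526.4 to 645.5 in the mutant and 809.8 to 873.0 in wild type. Without OsNAAT1 they were 448.2 to 512.8 in the mutant and 509.4 to 560.9 in wild type, which overlap. Of 9 seed storage and seed protein genes 1 fell, beside 8.71% falling among all genes. It was the glutelin gene GLUA-2, with 244.0 ± 11.4 in the mutant and 369.2 ± 21.2 in wild type (SD, n = 3 each). A dim GLUA-2 probe set, marked as able to bind related transcripts, had a log2 difference of 0.13 and did not pass (adjusted p = 0.375). The summed seed signals were 1459 to 1553 in the mutant and 1681 to 1791 in wild type. The seed list median was 0.00, with 5 of 9 means higher in the mutant. Without GLUA-2 the seed sums were 1203 to 1309.6 in the mutant and 1326 to 1432 in wild type, still without overlap. Without GLUA-2 and the globulin gene GLB1, both picked after their values were seen, the seed sums were 441.6 to 517.1 in the mutant and 473.4 to 503.1 in wild type, which overlap. The part of these tissue genes in the OsCIN2 difference was not tested.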

How the data were processed

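The deposited values are intensity on a linear scale, 1 signal per probe set, made by the authors with MAS5, per the submitters' processing notes. MAS5's version, settings and target were not stated. Of 57381 probe sets, 123 Affymetrix controls were left out. The groups were compared on log2(signal + 32) in limma 3.58.1 (R 4.3.3), by lmFit and eBayes with the variance following the signal level, 2-sided. Adjusted p is by Benjamini-Hochberg across the 57258 probe sets left, and 0.05 was the threshold. The series' design text names SAM, with no settings, so it was not run. Differences are mutant minus wild type. Dim probe sets were kept, detection calls were not used, and the number of arrays limits the precision. The labels call the samples biological replicates.

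Genes came from the public array annotation (22436 probe sets named 1 gene, 95 several, 34727 none) and the rice gene table of assembly ASM3414082v1, which gave names and gene order. Lists were drawn by symbol patterns. 12 pathway genes and 21 tissue genes that a pattern caught but whose other names show a different kind of gene were removed before their values were read. Each gene counts once, by its brightest probe set. The gene, the lists and the tests were chosen with earlier results of these data known.

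Named were OsCIN2, all invertase and inhibitor family genes, up to 4 genes with the lowest p that passed in each other list (or 1 where none did), the 5 nearest profiles, and 3 measured neighbours a side. Tissue genes, SBE, OSK24, OsMYBS2 and further probe sets of a named gene were chosen after their values were seen. The fit was tested on simulated data. Python 3.11.15 with pandas 2.3.3 joined the tables, and matplotlib 3.10.9 drew the plots. The alternatives tried were an offset of 1, an offset 4 times as large, array medians subtracted, quantile normalization, the dimmest 40% left out, a constant prior variance, a replicate block, and each array left out in turn.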

Additional observations from a re-analysis of the deposited data

How the results depend on the processing

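The log2 difference of OsCIN2 stayed positive in all 13 alternatives, at 1.03 with the offset 4 times as large and from 1.19 to 1.38 when 1 array was left out. With the replicate number as a block it was 1.27. The gene was chosen by this difference, and its groups do not overlap. Another offset, the block or leaving out 1 array therefore could not turn its sign, so the constant sign tests nothing. Same-numbered arrays had correlations of their deviations from the group means of 0.01, -0.17 and 0.09, and mutant replicate 1 correlated best with wild-type replicate 2, so the numbers were not taken as pairs. The block called 5115 probe sets, against 5672 without it. It changed 1 call among the named genes, LOC4335786 (adjusted p = 0.0608). Leaving out 1 array gave 2274 to 6349 probe sets, 0 to 1 of the 7 other invertase genes and 5 to 16 of the 69 pathway genes, against 10 in the full fit. The lowest counts of probe sets and pathway genes came without mutant replicate 2 and the highest without wild-type replicate 3. Without mutant replicate 3 there were 2787 probe sets and 6 pathway genes, and without wild-type replicate 2 there were 3135 probe sets. The cause was not tested. Of 12 named probe sets past the threshold, 6 stayed past it in every alternative: OsSUS5, OsSWEET11, OsTPP7, OsMYBS3, OSK3 and LOC4335791. Signs turned only where differences were near 0. CINV1 had 0.0062 after quantile normalization. With 1 array left out it ranged from -0.0736 to 0.0379, OsCIN3 from -0.102 to 0.0309 and LOC4335795 from -0.0212 to 0.0487. LOC4335793 passed after quantile normalization, after median subtraction and without wild-type replicate 3 (adjusted p = 0.0481, 0.0486 and 0.0204), and OsGBSS1 passed without wild-type replicate 3 (adjusted p = 0.0236). Dim signals, as of OsCIN3, limit what can be seen.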
